A study of Mus musculus with 2 samples.

Results

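The myeloid transcription factor genes examined here are the C/EBP family (Cebpa, Cebpb, Cebpd, Cebpe and Cebpg), the ETS factor gene Spi1, which encodes PU.1, and the interferon regulatory factor genes Irf8 and Irf4. They were chosen by name, and their symbols were matched to Ensembl identifiers. Of the 8 genes, 7 had values among 37820 genes in a gene table, and 5 of these also had values in a transcript table, where they were represented by 10 of 87641 transcripts. In the files they are Cebpa ENSMUSG00000034957, Cebpb ENSMUSG00000056501, Cebpd ENSMUSG00000071637, Cebpe ENSMUSG00000052435, Cebpg ENSMUSG00000056216, Spi1 ENSMUSG00000002111 and Irf4 ENSMUSG00000021356. Cebpa and Cebpd were read from the gene table alone. Irf8 was not analysed here.

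PU.1 is required for the myeloid and lymphoid lineages, and its dose helps to set lineage choice. C/EBP proteins are basic leucine zipper factors that bind DNA as pairs, so the amount of each member bears on which pairs can form. In blood formation C/EBPα acts at the entry into the granulocyte and monocyte lineage, C/EBPβ serves granulocyte production under stress and macrophage genes, and C/EBPε acts late in granulocyte maturation. IRF4 and IRF8 bind composite DNA sites together with PU.1 in lymphocytes, macrophages and dendritic cells.

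The series profiled polyadenylated RNA of sorted haematopoietic stem cells (HSCs), the cells from which all blood lineages descend, by paired-end sequencing. The adult HSCs were taken from B6129SF1 mice of 6 to 8 weeks, from bone marrow, and make up 2 samples. The fetal HSCs came from E14.5 liver (a day of embryonic development), per the labels' protocol, and separate fetal samples, with their strain, were not analysed here. No genetic change or treatment is given for either group, and neither the sort markers nor how many mice went into a library is stated in the labels. Each table has a column headed BM (bone marrow) and a column headed FL (fetal liver). The values are the authors' mean FPKM, that is fragments per kilobase of the feature and of the library's mapped total. No replicate values accompany them, so no difference can be measured against library-to-library spread, no test was possible, and the sequencing depth is unknown. "Higher" and "lower" describe these columns only. HSC genes were present in every column. Of 15 HSC identity genes, 15 reached 1 FPKM in transcript-table BM and FL and in gene-table BM, and 14 did so in gene-table FL.

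The headers of the tables disagreed for these genes. Spi1 stood at 70.3 FPKM under BM in the gene table, whereas in the transcript table it summed to 39.1 FPKM under BM and 67.0 FPKM under FL. Dividing the transcript-table FL value by the gene-table BM value gave 0.953 for Spi1, 0.958 for Cebpb, 0.958 for Cebpe, 0.957 for Cebpg and 0.952 for Irf4. The median of this quotient over 3520 genes with a single linked transcript and at least 1 FPKM in both was 0.956, and 56.1% of those genes lay within 1% of it. Between the columns that are both headed BM, 2.12% of 3345 such genes lay within 1% of their median. The gene-table FL column matched neither transcript-table column. Within 1% of the median lay 1.28% of 3283 genes against transcript-table BM and 1.06% of 3298 genes against transcript-table FL. The columns therefore do not pair off as they would if headers alone had been exchanged. The 5 genes therefore had near-identical values, up to 1 common factor, in the gene-table BM and transcript-table FL columns. The closeness also shows that the linked transcripts carried nearly all of the signal of each of these 5 genes. The match does not show which of the headers is right. If the headers of the transcript table were the exchanged ones, every direction given for that table would turn round. No column was therefore read as adult or fetal HSCs beyond its header, and every value below is given by its table and header.

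**Figure D1:**
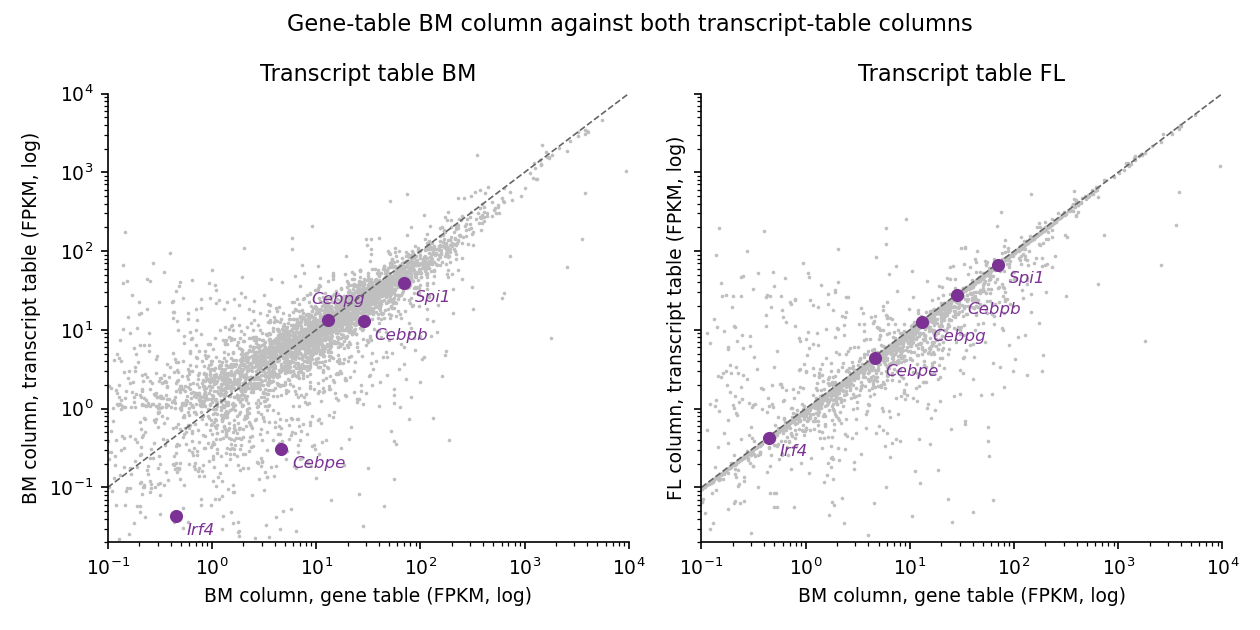
Gene-table BM values in FPKM (horizontal, log axis) against transcript-table BM (left) and transcript-table FL (right) values in FPKM (vertical, log axis); grey points are genes with a single linked transcript and the dashed line marks equality. The 5 purple points, with transcripts summed per gene, lie on the narrow band in the right panel, with quotients of 0.952 to 0.958, and scatter off it in the left panel.

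Levels of the 7 genes spanned from well below 1 FPKM to a level above 89.1% of the genes at 1 FPKM or more, that of Cebpb in gene-table FL. In transcript-table BM the order was Spi1, Cebpg, Cebpb, Cebpe and Irf4, and in transcript-table FL it was Spi1, Cebpb, Cebpg, Cebpe and Irf4. In the gene table the BM order was Spi1, Cebpb, Cebpg, Cebpa, Cebpd, Cebpe and Irf4, and the FL order was Cebpb, Spi1, Cebpd, Cebpg, Cebpa, Cebpe and Irf4. Without replicates, neighbours in these orders cannot be told apart by their spread; Cebpg and Cebpb in BM of the transcript table, at 13.2 and 13.0 FPKM, were the closest of them.

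**Figure D2:**
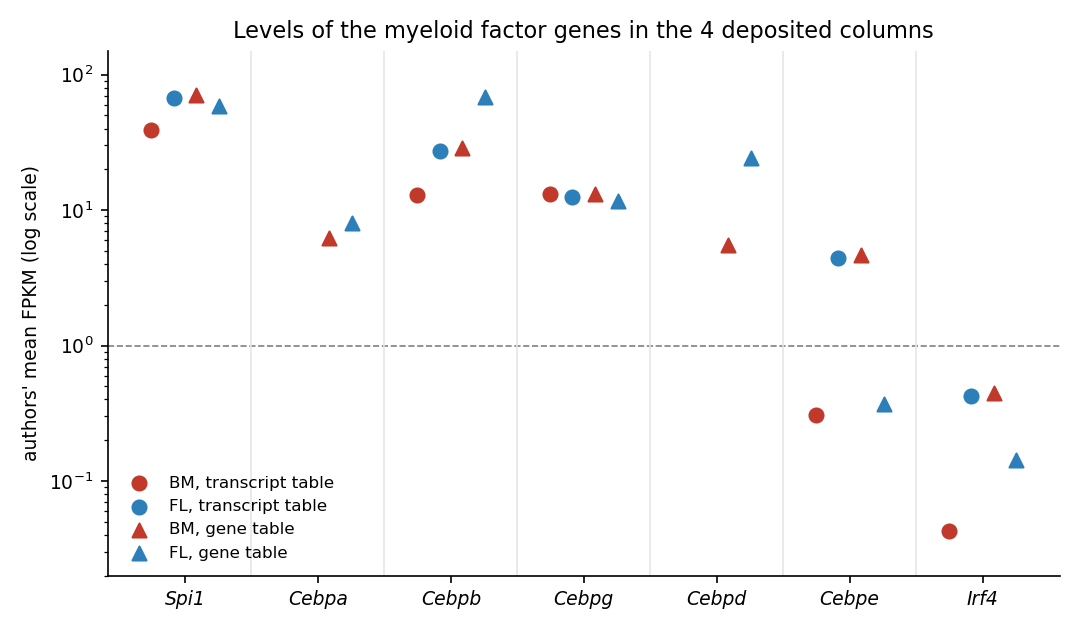
The authors' mean FPKM (vertical, log axis) of the 7 genes with values; circles are the transcript table, triangles the gene table, red BM and blue FL, and the dashed line marks 1 FPKM. Cebpg lies between 11.6 and 13.2 FPKM in all 4 columns, whereas Cebpe reaches 4.45 and 4.64 FPKM in the matching pair of columns and stays under 1 FPKM in the others.

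The BM and FL columns of the transcript table were compared first, since the study set adult against fetal HSCs, and directions follow the headers as deposited. Cebpb and Cebpe were lower in BM by 2-fold or more, Spi1 was lower by less than 2-fold and Cebpg was level. The ratio given is the relative log2 ratio, log2((BM + 0.1)/(FL + 0.1)) less the median of that value over genes that reached 1 FPKM in BM and in FL; the median was 0.01 here. Of 4 genes at 1 FPKM or more in either column, called expressed, 0 were 2-fold or more higher and 2 were 2-fold or more lower in BM; their median was -0.93. Among all 12220 expressed genes 13.3% were higher and 8.82% were lower, 22.1% in either direction, and the median was 0.02. With 4 genes the count describes these genes and no wider group.

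Spi1 was the most abundant of the factors in both columns of the transcript table. It stood at 39.1 FPKM in BM, above 79.3% of the genes at 1 FPKM or more, and at 67.0 FPKM in FL, above 86.9% of them. The BM level was 0.584 times the FL level, and the relative log2 ratio was -0.78. The 4 linked transcripts were all lower in BM. The main coding transcript, ENSMUST00000002180 (2034 nt), was at 28.5 FPKM in BM and 43.3 FPKM in FL, which is 72.8% and 64.7% of the Spi1 sum. ENSMUST00000131400 (613 nt), annotated without a coding sequence, was at 6.55 FPKM in BM and 13.3 FPKM in FL. ENSMUST00000169852 (544 nt) was at 2.69 FPKM in BM and 4.0 FPKM in FL. ENSMUST00000132741 (402 nt) had the lowest quotient, 0.217, with 1.39 FPKM in BM and 6.39 FPKM in FL, so that its share of Spi1 was 3.55% in BM and 9.54% in FL. The last 2 are annotated as coding but without a stop codon, that is as fragments. Their values are model estimates for models little longer than the 300 nt fragments of the protocol, and are the less certain for it.

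The Spi1 transcripts begin in 2 places, 13.7 kb apart in the GENCODE M21 annotation of GRCm38, which was joined by transcript identifier; the deposited values rest on mm9. Transcripts from the upstream place summed to 9.24 FPKM in BM and 17.3 FPKM in FL, and those from the downstream place to 29.9 FPKM in BM and 49.7 FPKM in FL. The upstream share was 23.6% in BM and 25.8% in FL, so both places were lower in BM and their balance was close. The start of the coding sequence tells the 3 coding transcripts apart, and is shown for that reason from the start codon to the base 24 into the exon they share. The sequences are from mouse chromosome 2, plus strand, and capitals mark bases outside the exons of the main transcript.
ENSMUST00000002180: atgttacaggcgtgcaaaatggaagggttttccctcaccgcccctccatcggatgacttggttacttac
ENSMUST00000132741: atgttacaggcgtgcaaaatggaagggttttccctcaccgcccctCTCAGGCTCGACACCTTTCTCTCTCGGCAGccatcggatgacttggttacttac
ENSMUST00000169852: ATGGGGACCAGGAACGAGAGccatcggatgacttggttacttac
ENSMUST00000132741 holds 30 extra bases, a whole number of codons, between the first and second coding exons. ENSMUST00000169852 replaces the first coding exon with 20 bases of the upstream exon, which is not a whole number of codons. Read from the start codon shown, its shared exon lies in a different frame from that of the main transcript.

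**Figure D3:**
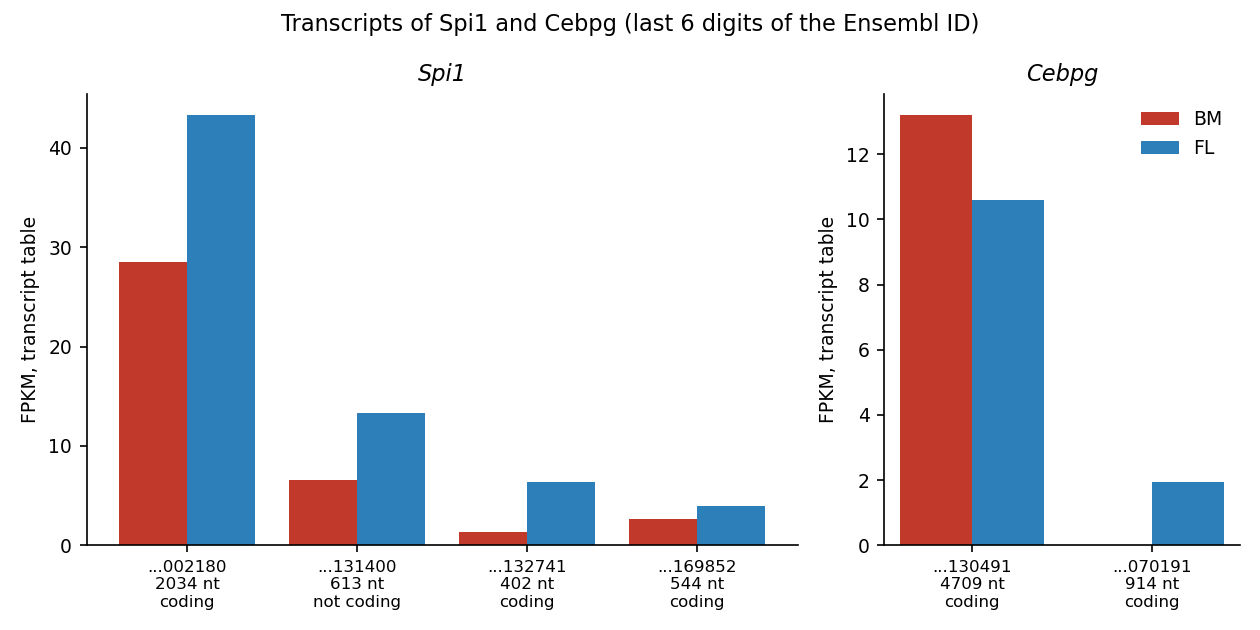
FPKM in the transcript table of the 4 Spi1 transcripts (left) and the 2 Cebpg transcripts (right), with BM in red and FL in blue; each transcript is named by the end of its identifier, its length and its type. All 4 Spi1 transcripts are lower in BM, and the short Cebpg transcript has a visible bar in FL alone.

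Cebpb, whose protein is a regulator of stress granulopoiesis, was at 13.0 FPKM in BM and 27.3 FPKM in FL of the transcript table. The BM level was 0.476 times the FL level (relative log2 ratio -1.07), which lies just past the 2-fold limit. It rests on the single, intronless transcript ENSMUST00000070642. In the annotation Cebpb overlaps Tmem189 on the opposite strand, and strand-specific counting is not stated, so reads of the 2 genes may not have been kept apart. Tmem189 stood at 21.7 FPKM in BM and 28.9 FPKM in FL of the gene table.

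Cebpe, a gene of late granulocyte maturation, was at 0.307 FPKM in BM, under the detection limit of 1 FPKM, and at 4.45 FPKM in FL of the transcript table. The BM level was 0.0691 times the FL level, and the relative log2 ratio was -3.49, the lowest of the expressed factors. The pseudocount of 0.1 makes this ratio understate the difference of so low a gene.

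Cebpg, which encodes a short family member that lacks a strong activation domain and pairs with other leucine zipper proteins, was at 13.2 FPKM in BM and 12.5 FPKM in FL of the transcript table (relative log2 ratio 0.07). Its transcripts did not share this level picture. ENSMUST00000130491 (4709 nt) was at 13.2 FPKM in BM and 10.6 FPKM in FL. ENSMUST00000070191 (914 nt) was at 7.61e-06 FPKM in BM and 1.93 FPKM in FL, where it made up 15.4% of the gene. Both have a coding sequence of 450 nt in the annotation and differ in their first exon and in the length of the last exon.

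Promoter sequence was set beside these values for Cebpa, Cebpb and Cebpg, the C/EBP genes with an entry among the RefSeq promoters (GRCm38.p6, 250 bases before to 50 after the start). They are shown because Cebpb was lower in BM, Cebpg was level, and Cebpa and Cebpg are near neighbours on chromosome 7, with 2 annotated genes between them. Capitals mark TATAAA and CCAAT on either strand, which were picked after the sequences had been seen.
Cebpb, chr2:167688665-167688964, plus strand: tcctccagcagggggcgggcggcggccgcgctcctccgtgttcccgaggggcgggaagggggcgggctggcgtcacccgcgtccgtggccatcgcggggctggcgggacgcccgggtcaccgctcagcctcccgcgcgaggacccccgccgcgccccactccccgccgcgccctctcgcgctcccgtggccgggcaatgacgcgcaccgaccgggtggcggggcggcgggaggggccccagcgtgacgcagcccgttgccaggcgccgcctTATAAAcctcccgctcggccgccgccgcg
Cebpg, chr7:35056517-35056816, minus strand: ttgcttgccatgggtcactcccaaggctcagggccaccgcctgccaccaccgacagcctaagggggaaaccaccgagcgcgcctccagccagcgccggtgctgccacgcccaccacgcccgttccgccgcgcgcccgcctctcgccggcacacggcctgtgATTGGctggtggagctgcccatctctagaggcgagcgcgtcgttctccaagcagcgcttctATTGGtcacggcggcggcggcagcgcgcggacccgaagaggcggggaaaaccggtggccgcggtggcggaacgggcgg
Cebpa, chr7:35119043-35119342, plus strand: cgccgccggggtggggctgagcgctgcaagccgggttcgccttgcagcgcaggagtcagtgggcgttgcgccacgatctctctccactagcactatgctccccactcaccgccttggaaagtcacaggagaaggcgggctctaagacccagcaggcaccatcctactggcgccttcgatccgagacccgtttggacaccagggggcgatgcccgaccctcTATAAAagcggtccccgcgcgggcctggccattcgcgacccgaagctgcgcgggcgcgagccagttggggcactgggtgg
Cebpb and Cebpa each hold 1 match to TATAAA and 0 to CCAAT, whereas Cebpg holds 0 to TATAAA and 2 to CCAAT. Over all 32851 promoters, 13.6% hold TATAAA and 37.4% hold CCAAT. The 3 windows are rich in CpG dinucleotides, with 50 in Cebpb, 38 in Cebpg and 29 in Cebpa, against a median of 7.0. Their GC content is 80.7%, 71.7% and 67.3%, against a median of 52.7%. None of the 3 holds the C/EBP palindrome TTGCGCAA (0.183% of promoters), the wider-spaced TTGCNNCAA (2.08%), the PU.1 site AGAGGAAGT (1.0%), GAGGAA (28.3%), the ETS and IRF composite GGAANNGAA (8.24%) or the IRF pair GAAANNGAA (8.56%), on either strand. GAGGAA is contained in AGAGGAAGT, and TTGCGCAA and TTGCNNCAA differ in length and do not hold each other. A match or its lack describes these letters only.

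Irf4, a factor of lymphocytes and dendritic cells, stayed under 1 FPKM in every column. It was at 0.0429 FPKM in BM and 0.427 FPKM in FL by its transcripts, and in the gene table at 0.448 FPKM in BM and 0.142 FPKM in FL. At these levels no direction is given. Both of its linked transcripts, which differ by 3 nt of coding sequence (1350 and 1347 nt), were low, with 0.0214 and 0.0215 FPKM in BM against 0.185 and 0.241 FPKM in FL.

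Most neutrophil, monocyte and macrophage markers, and those of several other cell types, were lower in the same column as Cebpb and Cebpe. Of 15 neutrophil and monocyte markers in the transcript table, 11 were at least 2-fold lower and 0 higher in BM, and their summed level was 221 FPKM in BM and 636 FPKM in FL, with none at 0 in either column. All 11 expressed macrophage markers were lower, of 12 measured, with sums of 7.10 FPKM in BM and 274 FPKM in FL; 1 was at 0 in BM and none was at 0 in FL. Of 6 expressed hepatocyte markers 5 were lower, with sums over 9 markers of 13.4 FPKM in BM and 42.2 FPKM in FL; 2 were at 0 in BM and none in FL. Of 12 erythroid markers 10 were lower and 1 was higher, with sums of 583 FPKM in BM and 921 FPKM in FL; 1 was at 0 in BM and none in FL. Of 11 endothelial markers 5 were lower and 0 higher, with sums of 263 FPKM in BM and 380 FPKM in FL. Stromal markers went the other way, with 2 higher and 0 lower of 3 expressed. Their sums over 10 markers were 13.6 FPKM in BM and 10.9 FPKM in FL, with 5 at 0 in BM and 2 in FL. Few markers of the remaining cell types were expressed. Lower were 1 of 3 for dendritic cells, 1 of 2 for B cells and 2 of 2 for mast cells and basophils, and 0 were higher. Liver cells also express C/EBP genes. The part of these cells in the C/EBP and Spi1 values was not tested. In bulk RNA, fewer cells of a type and less RNA per cell cannot be told apart.

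**Figure D4:**
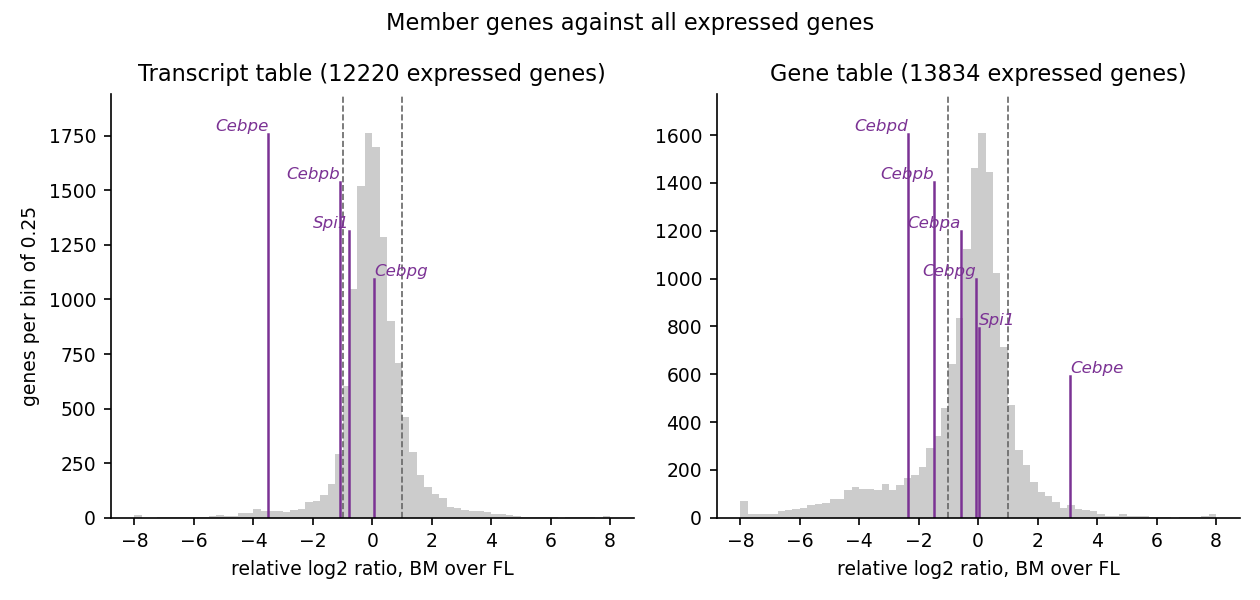
Relative log2 ratio, BM over FL (horizontal), of all expressed genes (grey, genes per bin of 0.25, values past 8 drawn at the edge) and of the expressed factors (purple lines) in the transcript table (left) and the gene table (right); dashed lines mark 2-fold. Cebpe stands at -3.49 on the left and at 3.10 on the right, and Cebpb lies below -1 in both panels.

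The same genes were then compared between the BM and FL columns of the gene table. Cebpb and Cebpd were lower in BM by 2-fold or more, Cebpe was higher, and Cebpa, Cebpg and Spi1 were within 2-fold. Of 6 expressed factors 1 was higher and 2 were lower, with a median of -0.33. Among all 13834 expressed genes 12.3% were higher (1708) and 23.6% were lower (3270), 36.0% in either direction, relative to a median shifted by 0.24 on the log2 scale. With no centring at all, 2376 genes were higher and 2826 were lower in BM. The counts of 1 and 2 among 6 genes do not stand apart from these shares. The gene-table BM column and the transcript-table FL column hold the same values up to a factor, so the comparisons share them on opposite sides, and each is given on its own.

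Cebpa, the factor at the entry into the myeloid lineage, was at 6.22 FPKM in BM and 7.96 FPKM in FL of the gene table (relative log2 ratio -0.59). Its level was above 28.5% of the genes at 1 FPKM or more in BM and above 36.3% of them in FL. Cebpd, a gene induced in the acute phase response, was at 5.52 FPKM in BM and 24.4 FPKM in FL, a BM level 0.226 times the FL level (relative log2 ratio -2.36). Cebpd overlaps Spidr on the opposite strand, which was at 10.5 FPKM in BM and 7.89 FPKM in FL. Cebpb was at 28.5 FPKM in BM and 68.4 FPKM in FL (relative log2 ratio -1.50), where it outranked Spi1. Both Cebpb and Cebpd were thus highest in the FL column of the gene table among the columns in which they have values.

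Cebpe was at 4.64 FPKM in BM and 0.369 FPKM in FL of the gene table, 12.6 times higher in BM (relative log2 ratio 3.10). Spi1 was at 70.3 FPKM in BM and 58.2 FPKM in FL. Its relative log2 ratio was 0.03, and it ranged from -0.11 with upper-quartile scaling to 0.27 without centring, so it has no firm direction. Cebpg was at 13.1 FPKM in BM and 11.6 FPKM in FL, with a relative log2 ratio of -0.07 that was 0.17 without centring.

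Endothelial and stromal markers were far higher in FL of the gene table, the column in which Cebpb and Cebpd were highest. All 11 endothelial markers were lower in BM by 2-fold or more, with sums of 414 FPKM in BM and 3276 FPKM in FL, and all 10 stromal markers were lower, with sums of 11.8 FPKM in BM and 791 FPKM in FL. No endothelial marker was at 0 in either column, and 2 stromal markers were at 0 in BM. Hepatocyte markers did not follow them, since of 7 expressed 3 were higher and 1 was lower in BM, with sums of 49.0 FPKM in BM and 56.1 FPKM in FL. Of 12 macrophage markers 8 were lower and 4 higher in BM (sums of 288 FPKM in BM and 716 FPKM in FL). Of 15 neutrophil and monocyte markers 11 were higher and 1 lower in BM (sums of 684 FPKM in BM and 185 FPKM in FL), in the direction of Cebpe; 3 of them were at 0 in FL. The part of these cells in the factor values was not tested. Some genes outside the marker lists were also far higher in FL of the gene table. Jun was at 6.65 FPKM in BM and 161 FPKM in FL. Egr1 was at 2.29 FPKM in BM and 55.4 FPKM in FL. Both belong to the list of PU.1 and IRF partners, of which 8 were higher and 8 lower in BM. Their link to Cebpb and Cebpd was not tested.

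The make-up of the C/EBP family differed between the BM and FL columns within each table. The 5 C/EBP genes of the gene table summed to 57.9 FPKM in BM and 113 FPKM in FL. Cebpb made up 49.2% of that sum in BM and 60.7% in FL, Cebpg 22.6% in BM and 10.3% in FL, and Cebpd 9.52% in BM and 21.6% in FL. Cebpa took 10.7% in BM and 7.06% in FL, and Cebpe 8.02% in BM and 0.328% in FL. The 3 C/EBP genes of the transcript table summed to 26.5 FPKM in BM and 44.3 FPKM in FL. There Cebpg and Cebpb took near-equal shares in BM, 49.8% and 49.1%, whereas in FL Cebpg took 28.3% and Cebpb 61.7%. Cebpa and Cebpd have no values in the transcript table, so its shares cannot be set against those of the gene table.

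Pairs of factors that are known to act with or against each other in lineage choice were set against each other within each column, as the quotient of their FPKM. Spi1 over Gata1, the erythroid factor gene, was 1.60 in BM and 1.3 in FL of the transcript table. In the gene table it was 1.31 in BM and 64.3 in FL, where Gata1 stood at 0.906 FPKM. Of 12 erythroid markers 9 were at least 2-fold higher and 0 lower in gene-table BM (sums of 673 FPKM in BM and 136 FPKM in FL), the opposite of the transcript table, where 10 were lower and 1 was higher. Spi1 over Gata2, a stem and progenitor factor gene, was 0.237 in BM and 0.980 in FL of the transcript table, with Gata2 at 165 FPKM in BM and 68.3 FPKM in FL. In the gene table that quotient was 0.983 in BM and 2.04 in FL. Cebpa over Spi1 was 0.0885 in BM and 0.137 in FL of the gene table, and Cebpa over Gfi1, a repressor gene of the granulocyte lineage, was 0.108 in BM and 0.485 in FL.

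Partners of the factors were compared in the transcript table first, where those of the C/EBP proteins lay mostly within 2-fold. Of 17 expressed C/EBP dimer partners and regulators 0 were higher and 1 was lower in BM (median -0.08). The lower gene was Atf4, a stress response factor, whose linked transcripts in FL summed to only 0.0199 times its gene-table BM value; without genes poorly covered in this way 0 of 13 were lower. Ddit3, a C/EBP-related stress factor gene, was at 24.2 FPKM in BM and 13.2 FPKM in FL, and the kinase gene Cdk4 was at 315 FPKM in BM and 602 FPKM in FL, both within 2-fold. Of 16 expressed PU.1 and IRF partners 3 were higher and 5 lower (median 0.38), and 3 and 3 of the 11 that were well covered. The lowest ratio was that of Gfi1, at 3.37 FPKM in BM and 34.2 FPKM in FL, which was not well covered. Egr1, a macrophage and immediate early factor gene, was at 61.4 FPKM in BM and 2.21 FPKM in FL, Klf4, a monocyte factor gene, was at 3.75 FPKM in BM and 0.701 FPKM in FL, and Id2, an inhibitor of E proteins, was at 1.69 FPKM in BM and 10.1 FPKM in FL. Among related ETS and IRF genes, Irf2, a repressor of interferon responses, was at 64.6 FPKM in BM and 43.3 FPKM in FL.

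Lists of receptor, granule, and monocyte and dendritic cell genes, taken as possible targets of PU.1 and C/EBP, were next compared in the transcript table. They are lists of gene names, and binding to these genes was not measured. The granule lists were mostly lower in BM. Of 14 expressed receptor targets 0 were higher and 7 lower (median -1.05), but 3 lower among the 9 that were well covered. Csf1r, the macrophage growth factor receptor gene and a PU.1 target, was at 0.0779 FPKM in BM and 17.8 FPKM in FL, and the chemokine receptor gene Cx3cr1 was at 0.0225 FPKM in BM and 2.47 FPKM in FL. Csf2ra, a receptor subunit gene for the growth factor GM-CSF, was at 19.7 FPKM in BM and 13.1 FPKM in FL, and the cytokine receptor gene Flt3 was at 10.3 FPKM in BM and 19.3 FPKM in FL. Of 8 expressed primary granule genes 1 was higher and 5 lower (median -1.70). The protease gene Ctsg was at 1.33 FPKM in BM and 24.6 FPKM in FL, whereas Srgn, a granule proteoglycan gene, was at 855 FPKM in BM and 401 FPKM in FL. Of 12 expressed secondary granule and late neutrophil genes 0 were higher and 9 lower (median -3.17), and 8 of 11 when well covered. Fcnb, a ficolin gene, was at 0.157 FPKM in BM and 8.55 FPKM in FL, and the lysozyme gene Lyz2 was at 111 FPKM in BM and 92.2 FPKM in FL. Of 9 expressed monocyte and dendritic cell genes 2 were higher and 3 lower (median -0.12), with Ctss, a protease gene of antigen-presenting cells, at 4.10 FPKM in BM and 15.8 FPKM in FL. Cd177 and Retnlg, markers of mature neutrophils, were listed at 0 in every column. These lists share genes with the marker lists above.

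In the gene table the lists of possible targets differed in direction. Of 8 expressed primary granule genes 7 were higher and 1 lower in BM (median 3.06), and of 12 secondary granule and late neutrophil genes 7 were higher and 1 lower (median 2.32). The 1 lower gene of the primary granule list was Igfbp4, a gene for a growth factor binding protein, at 127 FPKM in BM and 534 FPKM in FL. The elastase gene Elane was at 46.3 FPKM in BM and 0.0964 FPKM in FL, and Ctsg was at 25.6 FPKM in BM and listed at 0 in FL. Of 15 receptor targets 4 were higher and 6 lower (median -0.19). Csf1r was at 19.0 FPKM in BM and 92.2 FPKM in FL, and Flt3 was at 20.1 FPKM in BM and 3.16 FPKM in FL. Of 10 monocyte and dendritic cell genes 1 was higher and 6 lower (median -1.58), with Ctss at 16.5 FPKM in BM and 58.0 FPKM in FL. Of 19 C/EBP dimer partners and regulators 2 were higher and 5 lower (median -0.09), near the shares over all expressed genes. Trib1, whose protein promotes the breakdown of C/EBPα, was at 1.59 FPKM in BM and 18.2 FPKM in FL, and the stress factor gene Atf3 was at 0.409 FPKM in BM and 68.3 FPKM in FL. Of 20 PU.1 and IRF partners 8 were higher and 8 lower (median -0.47), against 12.3% and 23.6% of all expressed genes. The highest ratios were those of Gata1, at 53.7 FPKM in BM and 0.906 FPKM in FL, and Gfi1b, at 96.0 and 3.34 FPKM. The lowest were those of Klf4, at 0.747 FPKM in BM and 43.5 FPKM in FL, and Jun, given above. Klf4 and Egr1 had the opposite direction in the transcript table. Of 8 related ETS and IRF genes 1 was higher and 1 lower (median -0.16).

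**Figure D5:**
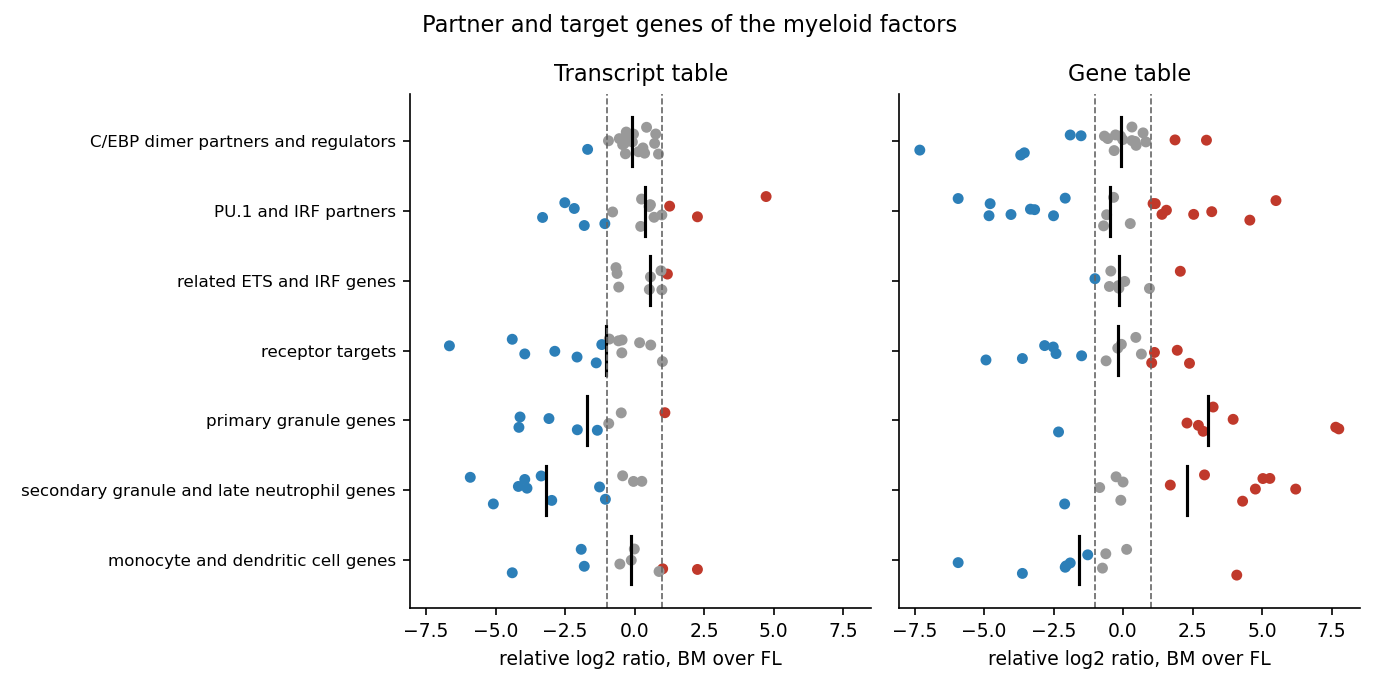
Relative log2 ratio, BM over FL (horizontal), of expressed genes in 7 lists of partners, related genes and possible targets. The transcript table is on the left and the gene table on the right. Each point is a gene, red at least 2-fold higher and blue at least 2-fold lower in BM. Black bars are medians and dashed lines mark 2-fold. Medians of the granule gene lists are -1.70 and -3.17 on the left and 3.06 and 2.32 on the right.

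The genes nearest in pattern were found for the 3 factors with values in all 4 columns and at least 5 FPKM in 1 column. The measure was the distance between centred log2 values over the 4 columns. For these 3 factors, 2 of the columns hold near-identical values up to a factor. Among 11512 genes the nearest to Spi1 were Eif1ad (distance 0.00256) and Mrps7 (0.0120). The nearest to Cebpb were Sh3bgrl2 (0.0218) and Fndc4 (0.0338), and the nearest to Cebpg were Marf1 (0.0133) and Ipo4 (0.0178). With so few columns many genes lie this close, and nothing further is read from the names.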

How the data were processed

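The authors deposited mean FPKM values per gene and per transcript. The submitters' processing notes name TopHat, Cufflinks, featureCounts of Subread, edgeR and build mm9, with no role or version, and no annotation release. FPKM is scaled by length and by library total, so abundant genes can shift a whole column, and transcript values are model estimates. Multiplied by 3, 51.9% of non-zero FL values of the gene table had at most 6 digits, and multiplied by 2, 63.2% to 68.2% of those in the other columns did, the trace that means of 3 and of 2 rounded values leave. FPKM retains no depth, so no interval is given.

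Symbols (32819 of 37820 genes) and the gene of each transcript (76507 of 87641) came from GENCODE M21 by identifier, and transcripts were summed into 28009 genes. A gene was called well covered when its FL sum lay within 10% of the usual quotient to the gene-table BM value, as for 70 of 101 pathway genes. The 2-fold rule was checked on simulated columns, with changes well past 2-fold in genes at 5 FPKM or more. That check does not bear on ratios near the limit, on lower genes such as Cebpe or on spread between replicates. Members and gene lists were chosen with earlier results of these data known. Genes named were drawn from all members, the 3 most abundant and up to 2 highest and 2 lowest ratios of each list, genes at 0 in both columns, the pairs and nearest genes, plus overlapping genes. Of 11 fixed pairs, 7 had values. Python 3.11.15, numpy 2.4.6, pandas 2.3.3 and matplotlib 3.10.9 were used.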

Additional observations from a re-analysis of the deposited data

Results flagged for a closer look

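Cebpe was more than 2-fold apart in both tables but in opposite directions. Its relative log2 ratio of BM over FL was -3.49 in the transcript table (0.307 FPKM in BM and 4.45 FPKM in FL) and 3.10 in the gene table (4.64 FPKM in BM and 0.369 FPKM in FL). The difference was not tested. The value of 4.64 FPKM stands under BM in one table and, times the usual factor, under FL in the other.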

How the results depend on the processing

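Member ratios were recomputed with pseudocounts of 1 and 0.01, without centring, with upper-quartile scaling, from the most abundant transcript alone and, in each table, with the matching column of the other table (planned for the transcript table, chosen after seeing the data for the gene table). Of 63 such values 56 kept their direction and side of 2-fold. Part of this agreement was fixed in advance, so the count does not measure robustness. The matching column holds near-identical values up to a factor, which centring removes. In the transcript table centring shifts ratios by only 0.01, and Cebpb and Cebpe each have a single linked transcript. The exceptions among expressed factors lay near 0 in the gene table: Cebpg was 0.17 without centring and 0.00 with the matching column, and Spi1 was -0.11 with upper-quartile scaling. The other 4 belong to Irf4, under 1 FPKM throughout. Cebpb in the transcript table, close to the 2-fold limit, ranged from -1.10 to -1.01. Keeping genes at 5 FPKM or more left 1 lower member in the transcript table and 0 higher in the gene table, since Cebpe is below 5 FPKM; that filter also gave 883 higher and 616 lower genes of the transcript table and 2018 lower genes of the gene table, and no filter gave 1891 and 5936 lower genes. Of 126 counts over pathway lists, none above 10, 22 moved by over 1.5 times. The restriction to well covered genes was chosen after seeing the data. No paired analysis was possible because the columns carry no replicate values, and leaving out replicates was not run for that reason. Depth is unknown, so no limit that it sets can be given.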
